A study of Mus musculus with 36 samples.

Results

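The 10 genes described here encode the enzymes that make, interconvert and degrade polyamines, the proteins that control ornithine decarboxylase, and the first enzyme of methionine salvage. They were fixed by name as Odc1, Oaz1, Oaz2, Azin1, Amd1, Srm, Sms, Sat1, Smox and Mtap, and all 10 were found both among 136300 liver features and among 32266 MEF genes. RNA with a poly(A) tail was sequenced in 12 mouse liver libraries and 24 libraries of mouse embryonic fibroblasts (MEFs), with 3 libraries in each of 4 liver groups and 8 MEF groups. Livers were frozen and powdered whole from male mice of 4 weeks, killed at ZT14 after a 24 h fast or with food ad libitum. The knockout (KO) mice are labelled Vps15LKO, with floxed Vps15 alleles and a Cre driven by the Ttr promoter, which acts in hepatocytes. The wild-type (WT) mice are given without an allele. The groups were thus fasted KO, fasted WT, fed KO and fed WT. All MEFs carry Vps15f/f alleles, and an adenovirus brought either Cre (labelled Vps15KO, columns headed CRE) or GFP (labelled WT, columns headed GFP). MEFs were headed basal, 4 h methionine deprivation (called deprived here), or that deprivation followed by 1 h or by 4 h of methionine replenishment (called 1 h and 4 h here). The basal medium was DMEM with no serum. Nothing in the sources used here says whether the 3 libraries of a group came from separate cultures or mice, so p-values measure the spread between these samples, which may be technical.

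Polyamines are small positively charged molecules that bind nucleic acids and are needed for growth and for the hypusine modification of the translation factor eIF5A. Ornithine decarboxylase (Odc1) makes putrescine, the antizymes Oaz1 and Oaz2 bind the enzyme and send it to the proteasome, and the antizyme inhibitor Azin1 binds antizymes in its place. Decarboxylated S-adenosylmethionine from Amd1 donates the aminopropyl groups that Srm and Sms add to form spermidine and spermine. Sat1 and Smox run the route backwards by acetylation and oxidation, and Mtap splits the methylthioadenosine left by Srm and Sms so that its sulfur returns to methionine. Translation of several of these messages is itself controlled by polyamines, so that the RNA levels given here are only a part of the system's control.

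The promoters of Smox, Sat1, Amd1 and Sms are shown because these members were the ones that lay furthest above WT in fasted KO livers. Each line gives the 250 bases before the transcription start in RefSeq's annotation of GRCm38.p6 (for Sms, 1 of 2 listed starts), 5′ to 3′ on the gene's strand, and 8 of the 10 members had an entry. The Smox window lies inside the gene as bounded in GENCODE M21, where Smox starts at 131491496. Capitals mark matches on either strand to CACGTG (E-box), TGACNNNGC (antioxidant response element core), GGGCGG (GC box) or TGANTCA (AP-1), which overlapped nowhere in the windows printed.
Smox, chr2:131491612-131491861, plus strand: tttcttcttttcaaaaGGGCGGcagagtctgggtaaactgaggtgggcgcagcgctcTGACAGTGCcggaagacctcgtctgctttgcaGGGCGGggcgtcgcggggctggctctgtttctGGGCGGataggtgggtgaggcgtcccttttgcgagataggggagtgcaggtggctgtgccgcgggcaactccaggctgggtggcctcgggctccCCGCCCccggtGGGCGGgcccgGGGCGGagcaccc
Sat1, chrX:155216450-155216699, minus strand: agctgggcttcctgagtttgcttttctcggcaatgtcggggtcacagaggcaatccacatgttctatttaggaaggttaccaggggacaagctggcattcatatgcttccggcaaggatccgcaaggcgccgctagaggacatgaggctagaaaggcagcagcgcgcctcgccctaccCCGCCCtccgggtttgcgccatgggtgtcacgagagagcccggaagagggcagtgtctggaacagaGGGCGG
Amd1, chr10:40302189-40302438, minus strand: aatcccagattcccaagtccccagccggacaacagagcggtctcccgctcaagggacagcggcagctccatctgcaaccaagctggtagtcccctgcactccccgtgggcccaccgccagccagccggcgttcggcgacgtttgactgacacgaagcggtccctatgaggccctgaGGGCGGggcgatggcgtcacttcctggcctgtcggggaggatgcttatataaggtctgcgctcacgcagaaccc
Sms, chrX:157492288-157492537, minus strand: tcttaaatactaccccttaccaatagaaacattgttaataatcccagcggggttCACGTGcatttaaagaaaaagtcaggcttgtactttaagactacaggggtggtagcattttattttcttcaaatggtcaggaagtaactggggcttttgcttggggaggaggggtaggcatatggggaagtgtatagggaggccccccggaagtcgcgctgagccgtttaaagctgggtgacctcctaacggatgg
The Smox window held 6 GGGCGG matches and 1 TGACNNNGC match, the Sat1 window 2 GGGCGG matches, the Amd1 window 1 GGGCGG match and the Sms window 1 CACGTG match. Among 32851 promoter windows of the same length, 32.7% held GGGCGG, 10.2% TGACNNNGC, 6.75% TGANTCA and 6.02% CACGTG. These matches are descriptions of the letters in the windows.

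Liver libraries held 9110836 to 12870944 counts and MEF libraries, from counts recovered out of the deposited log2 values, 19345029 to 21245006. The gene named by the labels, Pik3r4 (which encodes VPS15, the regulatory subunit of the class 3 PI3K), had 21.1, 24.0 and 18.2 CPM in fasted KO livers, against 21.0, 24.7 and 21.2 CPM in fasted WT livers. It had 24.6, 22.2 and 25.3 CPM in fed KO livers, against 23.1, 17.6 and 22.9 CPM in fed WT livers, so that these counts did not separate the genotypes. The deleted stretch is not given in the sources used here, and a count over the whole gene is no check of it. In MEFs the mean log2 value of Pik3r4 under the CRE headings exceeded that under the GFP headings by 0.23, 0.21, 0.15 and 0.05 at basal, deprived, 1 h and 4 h, and the first 3 of these differences passed the test. Hepatocyte markers were the strongest marker list in all liver groups, with sums from 13906 to 43392 CPM, and fibroblast markers dominated the MEF libraries, with sums of recovered counts from 6392 to 11650 CPM.

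Oaz1 was the most abundant member per length in all 4 liver groups and Sms the least abundant. Oaz1 averaged 51.2 CPM per kilobase of exon in fasted KO livers, 92.4 in fasted WT livers, 45.2 in fed KO livers and 64.5 in fed WT livers. Sms averaged 1.27 CPM per kilobase in fasted KO livers, 0.319 in fasted WT livers, 1.17 in fed KO livers and 0.877 in fed WT livers. Sat1 stood in second place in fasted KO livers with 39.7 CPM per kilobase and in the fifth place in fasted WT livers with 12.4. All values that follow for liver are CPM, the reads of a gene scaled to a fixed library total, after scaling by trimmed mean of M-values (TMM), and the changes are log2 changes with their standard errors (SE) from edgeR. Coordinates of genes are those of GENCODE M21 on GRCm38 (mm10).

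**Figure D1:**
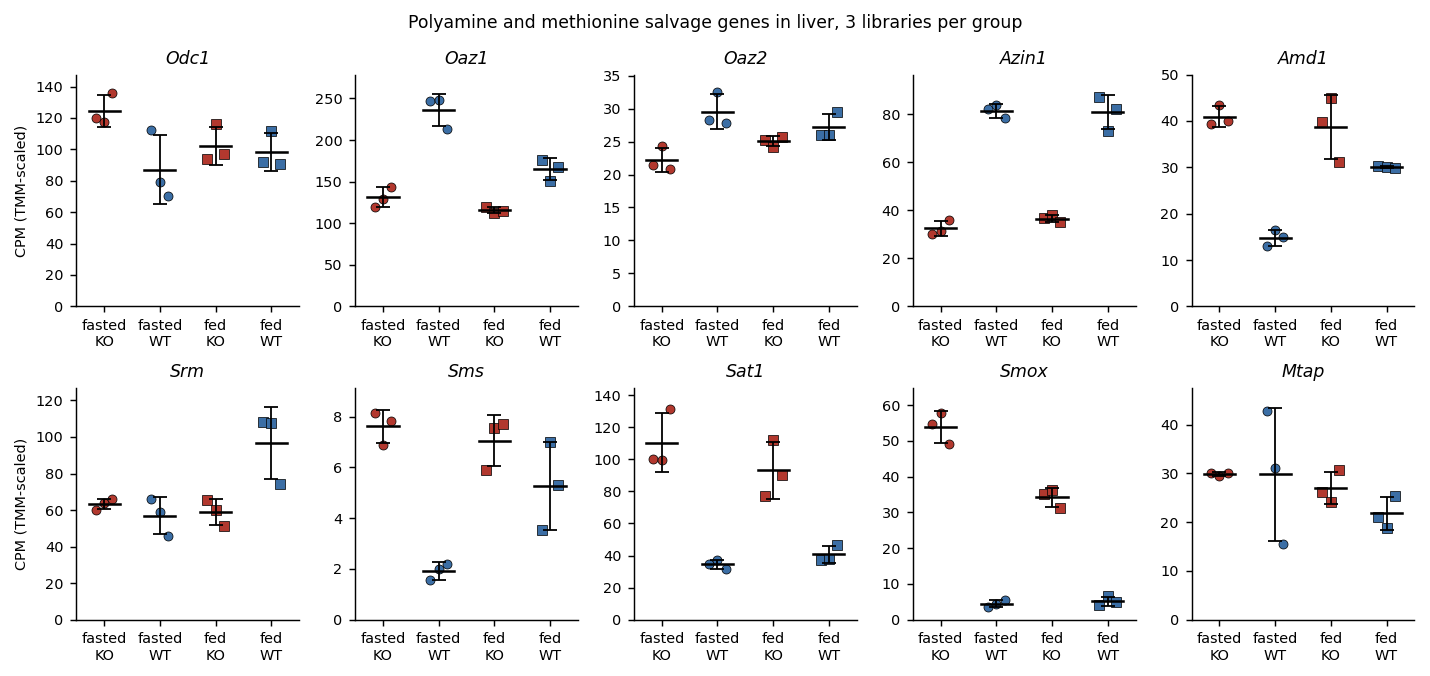
Levels of the 10 members in the 12 liver libraries. The vertical axes are CPM from 0, points are libraries, and bars are the mean and SD of 3 libraries for fasted KO, fasted WT, fed KO and fed WT. Smox lay between 31.1 and 58.0 CPM in KO livers and between 3.48 and 6.54 CPM in WT livers, and Amd1 and Sms were lowest in fasted WT livers.

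With TMM scaling, ornithine decarboxylase was higher and its antizymes were lower in fasted KO than in fasted WT livers. For the antizyme Oaz2 the direction depended on the scaling. Odc1 (ENSMUSG00000011179, chromosome 12, 17544794 to 17551505) had 120.2, 117.2 and 135.8 CPM in fasted KO livers, against 112.1, 79.3 and 70.1 CPM in fasted WT livers. The KO libraries all lay above the WT libraries, 1 of which was close to them. The change was 0.51 ± 0.16 (1.43-fold; adjusted p = 0.0123), and without fasted WT library c it was 0.40 (adjusted p = 0.0533). In the fed state Odc1 had 93.7, 116 and 96.8 CPM in KO livers, against 91.7, 112 and 90.8 CPM in WT livers, and these libraries overlapped (0.06 ± 0.16; adjusted p = 0.791), although with library sizes alone the change was 0.44 (adjusted p = 0.0322). In whole liver fewer cells of a type and less RNA per cell cannot be told apart, here and in all liver results.

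Oaz1 (ENSMUSG00000035242, chromosome 10, 80826656 to 80829290), the major antizyme, had 119.9, 129.5 and 143.8 CPM in fasted KO livers, against 247, 248 and 213.7 CPM in fasted WT livers. It had 119.4, 112.2 and 115.1 CPM in fed KO livers, against 176.2, 150.8 and 168.2 CPM in fed WT livers. All 6 KO libraries were below all 6 WT libraries. The change was -0.85 ± 0.11 in fasted livers (0.555-fold; adjusted p = 9.43e-06) and -0.51 ± 0.11 in fed livers (0.70-fold; adjusted p = 0.00129). With fasting, Oaz1 rose in WT livers by 0.52 ± 0.11 (adjusted p = 0.00273), and its change in KO livers was 0.18 ± 0.11 (adjusted p = 0.411). The fall in fed KO livers did not pass when library sizes alone were used for scaling (-0.14; adjusted p = 0.258).

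Azin1 (ENSMUSG00000037458, chromosome 15, 38487427 to 38519266), the antizyme inhibitor, fell together with Oaz1. It had 30.0, 31.3 and 36.2 CPM in fasted KO livers, against 82.1, 83.9 and 78.4 CPM in fasted WT livers. Fed KO livers had 36.9, 37.9 and 35.0 CPM, against 87.4, 73.2 and 82.5 CPM in fed WT livers. The genotypes were far apart in both states, and fasting moved neither of them past the test. The change between genotypes was -1.33 ± 0.11 in fasted livers (0.399-fold; adjusted p = 9.88e-08) and -1.15 ± 0.11 in fed livers (0.452-fold; adjusted p = 7.2e-07).

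Oaz2 (ENSMUSG00000040652, chromosome 9, 65668001 to 65690300), the second broadly expressed antizyme, had 21.5, 24.3 and 20.9 CPM in fasted KO livers, against 28.2, 32.6 and 27.8 CPM in fasted WT livers. Its change of -0.41 ± 0.11 (0.753-fold; adjusted p = 0.0067) was the weakest call among the controls of ornithine decarboxylase. It became -0.30 without fasted WT library b (adjusted p = 0.0619), -0.29 with no filter on low counts (adjusted p = 0.208), and 0.10 with library sizes alone, so that its direction depended on the scaling. Fed livers had 25.2, 24.2 and 25.7 CPM in KO and 26.0, 26.1 and 29.4 CPM in WT (-0.12 ± 0.11; adjusted p = 0.427). Expressed as a ratio of CPM per kilobase within each library, Odc1 over Oaz1 averaged 0.714 ± 0.0369 in fasted KO livers, 0.276 ± 0.0564 in fasted WT livers, 0.666 ± 0.0984 in fed KO livers and 0.452 ± 0.0924 in fed WT livers (SD, n = 3 each). Fasted KO and fasted WT libraries did not overlap in this ratio. The same was true of fed KO libraries, at 0.589 to 0.777, and fed WT libraries, at 0.391 to 0.558. The ratio is a description and was not tested.

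Amd1 (ENSMUSG00000075232, chromosome 10, 40287458 to 40302186), which supplies the aminopropyl donor, was lower in fasted than in fed WT livers, and its fasting change was not called in KO livers. It had 39.4, 43.5 and 40.0 CPM in fasted KO livers and 39.9, 44.9 and 31.2 CPM in fed KO livers, and these libraries overlapped (0.08 ± 0.13; adjusted p = 0.79). In WT livers it had 13.0, 16.4 and 15.0 CPM after the fast, against 30.3, 30.0 and 29.9 CPM with food, a change of -1.02 ± 0.14 (0.492-fold; adjusted p = 9.82e-05). The difference between these fasting changes, KO minus WT, was 1.11 ± 0.19 (adjusted p = 0.00178). Between genotypes the change was 1.47 ± 0.14 in fasted livers (2.76-fold; adjusted p = 4.45e-07). In fed livers it was 0.36 ± 0.13 (1.28-fold; adjusted p = 0.036), and that call was lost without any of 5 libraries, namely fed KO a and b and fed WT a, b and c (0.24 to 0.38, adjusted p from 0.0739 to 0.171), and with no filter (adjusted p = 0.091). Reads of Amd1 can be shared with Amd2 and with 5 Amd pseudogenes, so its counts carry that uncertainty. The same holds for Sms with the pseudogene Sms-ps, and for Oaz1 and Oaz2 with the pseudogenes Oaz1-ps and Oaz2-ps.

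The 2 aminopropyl transferases were both lower in fasted than in fed WT livers, and neither was called with fasting in KO livers. Srm (ENSMUSG00000006442, chromosome 4, 148591503 to 148594993), spermidine synthase, had 65.9, 59.0 and 45.9 CPM in fasted WT livers, against 108, 107.8 and 74.0 CPM in fed WT livers (-0.76 ± 0.16; 0.59-fold; adjusted p = 0.00255). In KO livers it had 60.2, 63.6 and 66.0 CPM fasted and 65.3, 60.1 and 51.5 CPM fed (0.10 ± 0.16; adjusted p = 0.79). Levels in both KO states were thus close to the fasted WT level, and fed WT livers stood alone above them. Fed KO livers were lower than fed WT livers by a change of -0.71 ± 0.16 (0.611-fold; adjusted p = 0.00173), which did not pass with library sizes alone (-0.34; adjusted p = 0.0832). The fasted genotypes overlapped (0.15 ± 0.16; adjusted p = 0.441), although with library sizes alone their change was 0.66 (adjusted p = 0.00222).

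Sms (ENSMUSG00000071708, chromosome X, 157443855 to 157492287), spermine synthase, had 8.15, 6.88 and 7.83 CPM in fasted KO livers, against 1.55, 2.00 and 2.20 CPM in fasted WT livers, where the libraries held 12, 16 and 16 counts. It had 5.90, 7.54 and 7.70 CPM in fed KO livers, against 3.53, 6.98 and 5.29 CPM in fed WT livers. The fasted WT libraries were below all others, and the fed genotypes overlapped. The change between genotypes was 1.99 ± 0.27 in fasted livers (3.96-fold; adjusted p = 1.28e-05) and 0.42 ± 0.23 in fed livers (adjusted p = 0.139). It became 0.67 in fed livers without fed WT library b (adjusted p = 0.0335) and 0.80 with library sizes alone (adjusted p = 0.00857). Fasting changed Sms by -1.45 ± 0.28 in WT livers (0.365-fold; adjusted p = 0.00128), and its change in KO livers was 0.11 ± 0.21 (adjusted p = 0.834).

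Both catabolic enzymes were higher in KO than in WT livers in both states. Smox (ENSMUSG00000027333, chromosome 2, 131491496 to 131525922), spermine oxidase, had 54.8, 58.0 and 49.0 CPM in fasted KO livers, against 3.48, 4.51 and 5.50 CPM in fasted WT livers, where the libraries held 27, 36 and 40 counts. Fed KO livers had 35.2, 36.3 and 31.1 CPM, against 4.05, 6.54 and 4.89 CPM in fed WT livers. No KO library came near a WT library. The change was 3.59 ± 0.18 in fasted livers (12-fold; adjusted p = 1.6e-09) and 2.73 ± 0.17 in fed livers (6.64-fold; adjusted p = 1.61e-08). Smox was also the only member called with fasting in KO livers, at 0.66 ± 0.14 (1.57-fold; adjusted p = 0.0399), with all fasted KO libraries above all fed KO libraries. This call was lost without any of 7 libraries (fasted KO a or c, fasted WT b, fed KO a, b or c, or fed WT c), with changes from 0.59 to 0.72 and adjusted p from 0.0528 to 0.139, and with library sizes alone (0.61; adjusted p = 0.054).

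Sat1 (ENSMUSG00000025283, chromosome X, 155213132 to 155216449), which acetylates spermidine and spermine, had 99.9, 99.4 and 131.4 CPM in fasted KO livers, against 34.8, 37.0 and 31.8 CPM in fasted WT livers. Fed KO livers had 77.0, 112.1 and 90.0 CPM, against 37.5, 37.8 and 46.6 CPM in fed WT livers. The genotypes did not overlap in either state. The change was 1.67 ± 0.16 in fasted livers (3.19-fold; adjusted p = 3.7e-07) and 1.19 ± 0.15 in fed livers (2.29-fold; adjusted p = 1.57e-05). Fasting called Sat1 in neither genotype (0.24 ± 0.15 in KO, adjusted p = 0.418; -0.24 ± 0.16 in WT, adjusted p = 0.301).

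Mtap (ENSMUSG00000062937, chromosome 4, 89137122 to 89181081), methylthioadenosine phosphorylase, did not pass the test in any liver comparison, except that fed KO against fed WT livers passed with library sizes alone (0.68; adjusted p = 0.0274). It had 30.2, 29.4 and 30.1 CPM in fasted KO livers, against 42.8, 31.1 and 15.5 CPM in fasted WT livers. Fed KO livers had 26.3, 24.2 and 30.7 CPM, against 21.1, 18.9 and 25.5 CPM in fed WT livers. The 3 fasted WT libraries covered the whole range of the gene, while the fasted KO libraries lay within 1 CPM of each other. The fasting change in WT livers was 0.45 ± 0.25 (adjusted p = 0.199), and without fasted WT library c it was 0.75 (adjusted p = 0.00619). Reads of Mtap can be shared with the pseudogene Gm12607 on the opposite strand, and those of Azin1 with the antisense gene Gm49077, since the strand setting of the counting is not given in the sources used here.

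**Figure D2:**
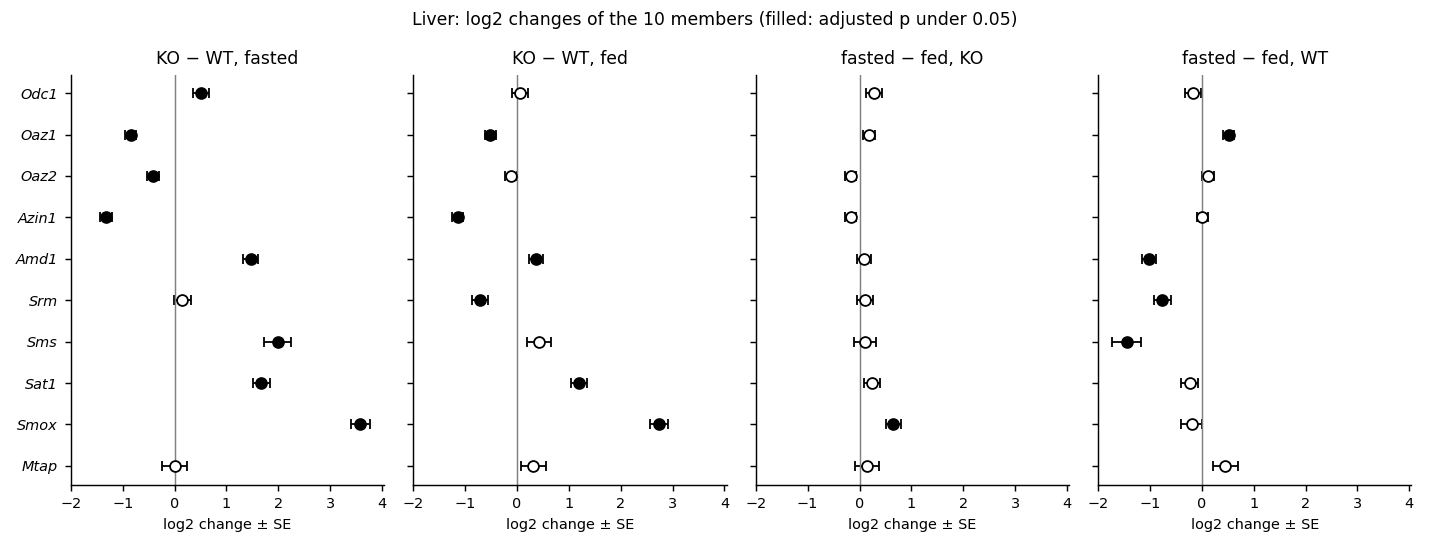
Log2 changes of the 10 members in 4 liver comparisons. Horizontal axes are log2 changes with SE, filled points passed an adjusted p of 0.05, and open points did not. KO minus WT spread from -1.33 for Azin1 to 3.59 for Smox in fasted livers, and fasted minus fed in KO livers stayed between -0.17 and 0.66.

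Counted over the members, 5 rose and 3 fell in fasted KO livers relative to fasted WT livers, where 56.2% of the 23875 genes tested were called (28.2% higher and 28.1% lower). In fed KO livers 3 rose and 3 fell relative to fed WT livers, where 46.3% of genes were called (23.4% higher and 23% lower). Fasting raised 1 member and lowered 3 in WT livers, where 26.3% of genes were called (12.4% higher and 14% lower), and in KO livers Smox was the 1 member called, where 1.39% of genes were called (0.792% higher and 0.599% lower). The members called were thus 8, 6, 4 and 1 of 10, and with so large shares called over all genes the counts in the genotype comparisons say little that is particular to the members. The median change of the members was 0.33 in fasted KO against fasted WT livers and 0.18 in fed KO against fed WT livers, beside 0.01 over all genes tested in each. It was 0.13 for fasting in KO livers and -0.18 for fasting in WT livers, beside -0.02 and -0.01 over all genes. These comparisons share groups in pairs, so they are not independent of each other. Without TMM factors the median of all genes moved to 0.52 in fasted and 0.39 in fed KO against WT livers and to -0.19 with fasting in WT livers. The split of calls then became 11731 higher and 3576 lower in fasted livers, beside 6722 and 6700, and 9968 and 3092 in fed livers, beside 5577 and 5483. With fasting it became 160 higher and 275 lower in KO livers, beside 189 and 143, and 1788 and 5216 in WT livers, beside 2957 and 3333.

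The fasting response itself differed between genotypes for 4 members, all with a positive difference of KO minus WT, where 12.1% of genes were called (6.35% with a positive and 5.7% with a negative difference). These were Sms (1.56 ± 0.35; adjusted p = 0.00913), Amd1 (1.11 ± 0.19; adjusted p = 0.00178), Srm (0.86 ± 0.22; adjusted p = 0.0206) and Smox (0.85 ± 0.25; adjusted p = 0.0392). The first 3 are the synthesis genes that fell with fasting in WT livers. The call for Srm was lost without fed KO library c (0.77; adjusted p = 0.0534) or fed WT library b (0.78; adjusted p = 0.0552). The call for Smox was lost without any of 8 libraries, namely fasted KO a or b, fasted WT a or b, fed KO a or c, and fed WT b or c (0.66 to 0.90, adjusted p from 0.061 to 0.128). Sat1 had a difference of 0.48 ± 0.22 (adjusted p = 0.175), which passed only with no filter (0.61; adjusted p = 0.0471), and Odc1 had 0.45 ± 0.22 (adjusted p = 0.212), which passed only without fasted WT library a (0.71; adjusted p = 0.0314). Negative differences that did not pass were those of Oaz1 (-0.34 ± 0.15; adjusted p = 0.182), Oaz2 (-0.29 ± 0.16; adjusted p = 0.27), Azin1 (-0.18 ± 0.15; adjusted p = 0.499) and Mtap (-0.31 ± 0.34; adjusted p = 0.624). The median difference over the 10 members was 0.47, beside 0.01 over all genes tested. With library sizes alone the median of all genes moved to 0.15, and the split of calls became 2232 positive and 1006 negative, beside 1517 and 1362. Of the genes around the members, Enoph1 (0.81 ± 0.23) and Paox (0.80 ± 0.17) also had a positive difference past the test, whereas Mat1a (-2.61 ± 0.40), Cth (-1.55 ± 0.34), Ahcy (-0.76 ± 0.21), Slc7a2 (-2.51 ± 0.25), Arg1 (-1.31 ± 0.26), Asl (-1.38 ± 0.31), Got1 (-3.03 ± 0.37), Agmat (-0.89 ± 0.27) and Mycl (-4.01 ± 0.36) had a negative one. Cell type markers moved in the same test, with 8 of 8 macrophage markers positive (median difference 1.16), 4 of 8 stellate cell and fibroblast markers positive and 2 of 8 hepatocyte markers negative. Positive differences were also called for 1 of 4 neutrophil, 1 of 5 endothelial, 1 of 4 cholangiocyte and 1 of 8 proliferation markers, and the 3 erythroid markers had 2 positive and 1 negative. Their part in the members' differences was not tested.

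Cell type markers also changed in these comparisons. Over all genes 56.2% were called between genotypes in fasted livers, 46.3% in fed livers, and 26.3% with fasting in WT livers. In fasted livers the 8 macrophage markers summed to 1649 to 1873 CPM in KO and 310.4 to 433.8 CPM in WT, and all 8 rose in KO. The 8 proliferation markers summed to 63.7 to 82.2 CPM in KO and 29.6 to 31.1 CPM in WT, with 7 higher. Cholangiocyte markers summed to 102 to 166 CPM in fasted KO and 18.7 to 26.9 CPM in fasted WT livers, with 4 of 4 higher, and stellate cell and fibroblast markers to 647 to 710 CPM in fasted KO and 355 to 369 CPM in fasted WT livers, with 5 of 8 higher. Endothelial markers summed to 483 to 523 CPM in fasted KO and 249 to 320 CPM in fasted WT livers, with 3 of 5 higher and 1 lower. The 5 neutrophil markers summed to 10.6 to 11.9 CPM in fasted KO and 0.376 to 0.773 CPM in fasted WT livers, where 1 of them was at 0, and 4 of 4 tested rose. Lymphocyte markers summed to 5.77 to 12.9 CPM in fasted KO and 5.64 to 6.19 CPM in fasted WT livers, with 1 of 4 higher, and the 3 erythroid markers to 266 to 309 CPM in fasted KO and 296 to 343 CPM in fasted WT livers, with 1 higher and 1 lower. Hepatocyte markers went the other way, at 14568 to 17108 CPM in fasted KO and 39379 to 43392 CPM in fasted WT livers, with 7 of 8 lower. In fed livers the macrophage sum was 1738 to 1971 CPM in KO and 957 to 1265 CPM in WT, with 6 of 8 higher, the proliferation sum 88.7 to 117 CPM in KO and 43.7 to 55.4 CPM in WT, with 7 of 8 higher, and the hepatocyte sum 13906 to 16189 CPM in KO and 31224 to 37751 CPM in WT, with 6 of 8 lower. Stellate cell and fibroblast markers summed to 727 to 989 CPM in fed KO and 504 to 547 CPM in fed WT livers, with 6 of 8 higher, and neutrophil markers to 12.01 to 18.1 CPM in fed KO and 4.38 to 7.30 CPM in fed WT livers, with 4 of 4 tested higher. Endothelial markers summed to 485 to 549 CPM in fed KO and 363 to 467 CPM in fed WT livers, with 3 of 5 higher and 1 lower. Cholangiocyte markers summed to 67.5 to 105 CPM in fed KO and 18.5 to 25.1 CPM in fed WT livers, with 1 of 4 higher. The 3 erythroid markers summed to 214.6 to 230.1 CPM in fed KO and 270.4 to 348.7 CPM in fed WT livers, with 2 lower, and lymphocyte markers to 7.89 to 8.98 CPM in fed KO and 9.38 to 11.6 CPM in fed WT livers. With fasting in WT livers all 8 macrophage markers fell, as Amd1, Srm and Sms did, and the proliferation sum was 29.6 to 31.1 CPM fasted and 43.7 to 55.4 CPM fed, with 4 of 8 lower. Also lower there were 5 of 8 stellate cell and fibroblast markers, 4 of 5 endothelial markers and 3 of 4 tested neutrophil markers, while 3 of 8 hepatocyte markers were higher. Mitochondrially encoded genes took 2.22 to 2.44% of counts in fasted KO and 3.29 to 3.65% in fasted WT livers, and 2.01 to 2.65% in fed KO and 3.43 to 3.62% in fed WT livers. The part of cell composition and of RNA quality in the members' changes was not tested.

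Genes that make, use or carry arginine and ornithine, the substrate of Odc1, changed in both directions in KO livers. Of 8 tested, 2 rose and 6 fell in fasted KO livers, with a median change of -2.04, and 3 rose and 5 fell in fed KO livers, with a median of -1.05, beside 56.2% and 46.3% of all genes called and medians of 0.01. Otc, the urea cycle enzyme that uses ornithine, had 12.5, 22.3 and 24.1 CPM in fasted KO livers, against 208.8, 243.5 and 239.5 CPM in fasted WT livers (-3.55 ± 0.31; adjusted p = 1.43e-07). Arg1, the hepatocyte arginase, had 232.5, 385.6 and 310.8 CPM in fasted KO livers, against 1452, 1111 and 1072 CPM in fasted WT livers (-1.97 ± 0.19; adjusted p = 4.82e-07). Arg2, the mitochondrial arginase found mainly outside hepatocytes, went up instead, at 10.2, 5.58 and 11.8 CPM in fasted KO livers, against 0.644, 0.501 and 0.137 CPM in fasted WT livers (4.37 ± 0.40; adjusted p = 2.69e-07), where the libraries held 5, 4 and 1 counts. In fed KO livers the changes were -3.71 for Otc, 4.69 for Arg2 and -1.88 for Asl. With fasting in WT livers 2 of the 8 rose, namely the arginine carrier Slc7a2 (2.04 ± 0.18; adjusted p = 1.87e-06) and Arg1 (0.69 ± 0.19; adjusted p = 0.0128). Over all genes 26.3% were called there, 12.4% of them higher in fasted livers and 14% lower, as shares of all genes tested.

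The methionine cycle supplies the substrate of Amd1. Of its 10 tested genes 1 rose and 6 fell in fasted KO livers (median change -2.32), and the same counts were seen in fed KO livers (median -1.40), beside the same shares and medians over all genes. Mat1a, the hepatocyte enzyme that makes S-adenosylmethionine, had 208.5, 496.6 and 270.3 CPM in fasted KO livers, against 5580, 4815 and 4807 CPM in fasted WT livers (-3.96 ± 0.32; adjusted p = 7e-08). Ahcy, which clears S-adenosylhomocysteine, changed by -2.38 ± 0.16 in fasted livers and -1.62 ± 0.15 in fed livers. Gnmt, which consumes S-adenosylmethionine on glycine, changed by -3.21 ± 0.30 and -2.15 ± 0.29, and the remethylating enzyme Bhmt by -3.82 ± 0.47 in fed livers. With fasting in WT livers 5 of the 10 rose, among them Mat1a (1.15 ± 0.28; adjusted p = 0.00767), Ahcy (0.72 ± 0.15), Mat2b (0.55 ± 0.12) and Mat2a (0.52 ± 0.13), so that these genes rose where Amd1, Srm and Sms fell. In KO livers 3 fell with fasting, and these were Mat1a (-1.46 ± 0.29; adjusted p = 0.0285), Cbs (-1.16 ± 0.23; adjusted p = 0.0295) and Mtr (-0.83 ± 0.19; adjusted p = 0.045). Over all genes, fasting called 26.3% in WT livers (12.4% higher) and 1.39% in KO livers (0.599% lower).

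The salvage steps after Mtap changed in both directions. In fasted KO livers 2 of 6 tested genes rose and 3 fell relative to fasted WT livers, where 56.2% of all genes were called. Enoph1, which acts on an intermediate of the salvage chain, had 8.87, 10.6 and 12.2 CPM in fasted KO livers, against 5.03, 4.89 and 4.67 CPM in fasted WT livers (1.11 ± 0.17; adjusted p = 4.35e-05). Mri1, the isomerase that follows Mtap, rose in both states (0.59 ± 0.13 in fasted and 0.81 ± 0.13 in fed livers), and Adi1, the dioxygenase, fell in both (-0.57 ± 0.11 and -0.46 ± 0.11). Got1, an aminotransferase with many other roles, changed by -2.43 ± 0.27 in fasted livers and did not pass in fed livers (0.60 ± 0.26; adjusted p = 0.0716). With fasting in WT livers Got1 and Mri1 rose and Enoph1 fell (-0.76 ± 0.17; adjusted p = 0.00434), the direction of Amd1, Srm and Sms. In KO livers Got1 alone was called with fasting (-1.17 ± 0.26; adjusted p = 0.0405).

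Among polyamine carriers, 3 of 6 tested rose and 3 fell in fasted KO livers, and 2 rose and 1 fell in fed KO livers. Over all genes 56.2% were called in fasted and 46.3% in fed livers. Slc3a2, the heavy chain of amino acid exchangers that also take part in polyamine export, had 182.2, 162.8 and 184.2 CPM in fasted KO livers, against 62.1, 61.6 and 56.4 CPM in fasted WT livers (1.55 ± 0.11; adjusted p = 1.92e-08). Atp13a2, the lysosomal polyamine exporter, rose by 0.87 ± 0.14 in fasted and 1.01 ± 0.13 in fed livers. Slc47a1, a cation exporter of hepatocytes, fell in KO livers in both states (-1.83 ± 0.16 in fasted and -2.18 ± 0.16 in fed livers). Of the 5 other polyamine genes tested, Agmat, Sat2 and Azin2 were called in fasted KO livers (-2.64 ± 0.20, -1.20 ± 0.18 and 1.02 ± 0.31) and in fed KO livers (-1.75 ± 0.20, -0.91 ± 0.18 and 2.14 ± 0.35). Paox, the oxidase that follows Sat1, was called in fed KO livers (-1.07 ± 0.12) and with fasting in WT livers (-0.88 ± 0.12), and its change in fasted KO livers was -0.27 ± 0.13 (adjusted p = 0.0783). Of the 4 genes of eIF5A and its hypusination, Eif5a2 was called in both states (1.29 ± 0.48 in fasted and 1.24 ± 0.41 in fed livers, at 0.275 to 2.34 CPM) and Dohh in fasted livers (-0.36 ± 0.12; adjusted p = 0.0186).

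Myc, whose product is known to bind E-boxes of Odc1 and other growth genes, had 136.1, 113.2 and 166.4 CPM in fasted KO livers, against 18.7, 19.4 and 15.9 CPM in fasted WT livers (2.94 ± 0.24; adjusted p = 9.01e-08). It had 104.6, 87.7 and 88.0 CPM in fed KO livers, against 15.0, 12.1 and 27.7 CPM in fed WT livers (2.35 ± 0.23; adjusted p = 1.2e-06). All 6 KO libraries lay above all 6 WT libraries. Odc1 was called between genotypes in the fasted state and, with TMM scaling, not in the fed state. The test of the difference between its fasting changes did not pass (0.45 ± 0.22; adjusted p = 0.212). A link between Myc and Odc1 was not tested. Of 7 tested genes of the MYC network, 3 rose and 3 fell in fasted KO livers, and in fed KO livers 3 were called, all higher. These counts stand beside 56.2% and 46.3% of all genes called. Mycl changed by -3.34 ± 0.25 in fasted livers and rose by 3.36 ± 0.26 with fasting in WT livers.

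**Figure D3:**
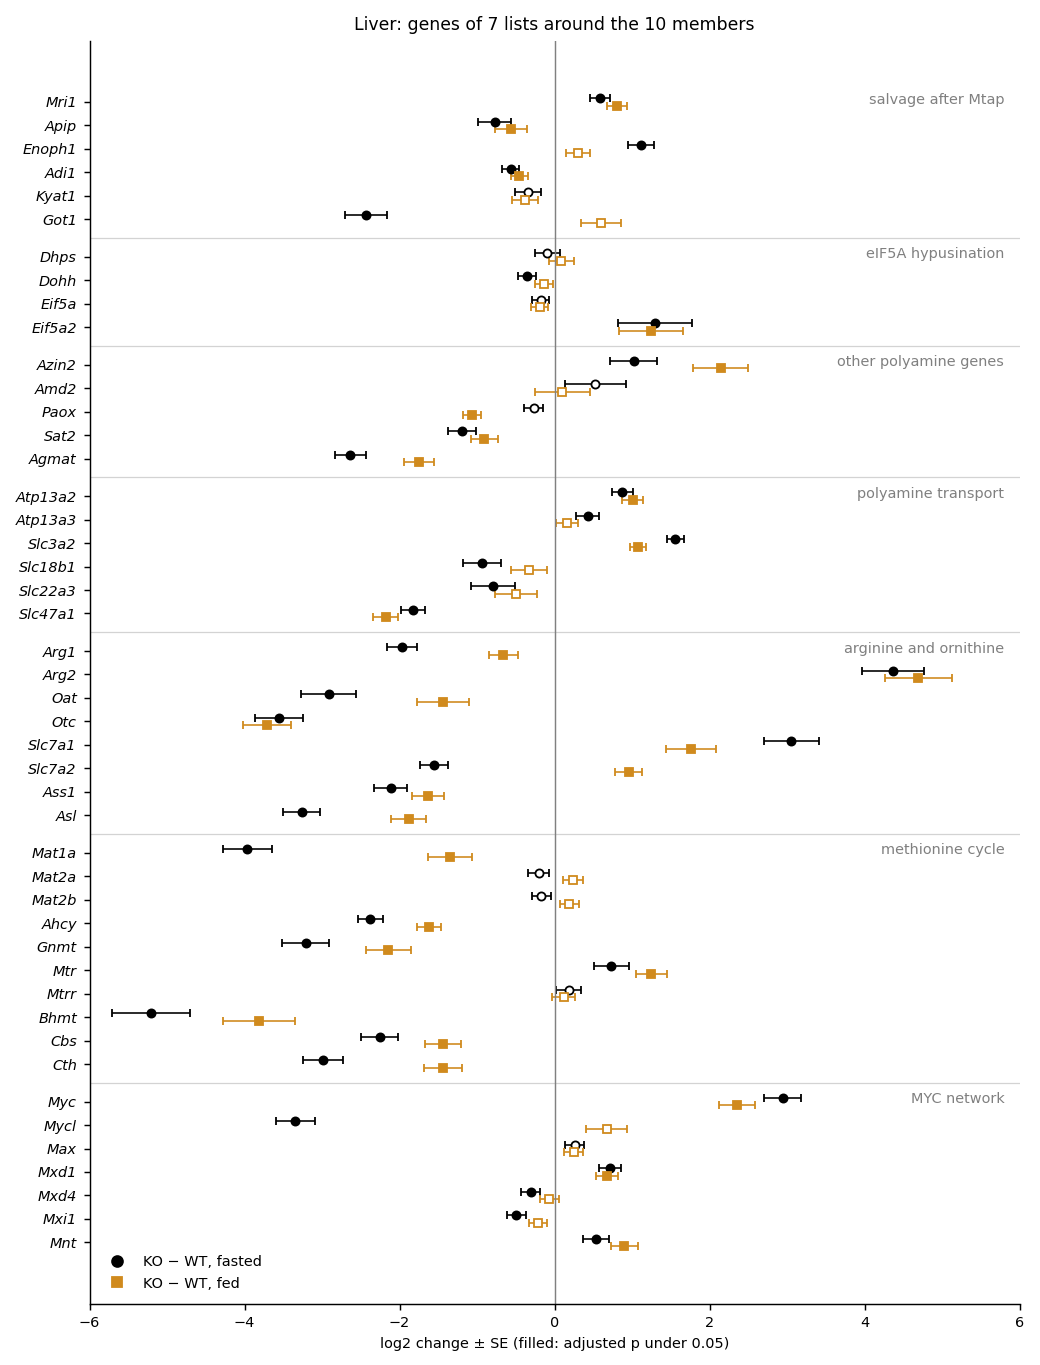
Log2 changes, KO minus WT, of the tested genes of 7 lists around the members in fasted livers (black circles) and fed livers (orange squares), with SE on the horizontal axis. Filled symbols passed an adjusted p of 0.05. Methionine cycle genes reached -5.20 for Bhmt in fasted livers, whereas Arg2 and Myc lay on the right at 4.37 and 2.94.

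The liver genes most like 3 of the members were named by the Pearson r of log2 CPM over 12 libraries, which share genotype, food state and depth. For Odc1 these were Atg4a (0.951), Rpl10 (0.939) and Ddx39 (0.927). For Amd1 they were Ly6c1 (0.979), Cxcl16 (0.978) and Ly6e (0.975), and for Sat1 they were Jak2 (0.991), Actr2 (0.990) and Mapk6 (0.988). The values are descriptions of these libraries.

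The MEF groups stand beside each other in ways that their headings do not follow, and every MEF result is given by column heading with no direction drawn for Vps15 or methionine. Over 13914 genes the root mean square log2 distance of group means from CRE basal was smallest to GFP 1 h (0.183), and that from CRE deprived was smallest to GFP 4 h (0.180). CRE 1 h lay 0.232 from GFP basal, its nearest group with another virus. Mat2a, which makes S-adenosylmethionine outside hepatocytes and is known to rise when methionine is short, averaged 13.60, 13.59, 11.80 and 11.43 in CRE basal, CRE deprived, CRE 1 h and CRE 4 h. It averaged 12.34, 12.17, 13.89 and 13.77 in GFP basal, GFP deprived, GFP 1 h and GFP 4 h, so that the columns headed GFP deprived were not higher than those headed GFP basal. CRE 4 h library 3 also stood apart from its replicates, with a chi-square per degree of freedom of 16.3 and 18.1 in its pairs beside 1.81 to 4.71 in all other pairs, and with a Mat2a value of 10.85 beside 11.73 and 11.70. MEF values are the deposited log2 values, and their differences are given with limma's SE.

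All members were well detected in MEFs, and their means over the 8 headings spanned from 1.34-fold for Amd1 to 1.69-fold for Mtap. Per length, Odc1, Srm and Oaz1 held the first 3 places under every heading and Smox the last. Odc1 reached 119.7 recovered CPM per kilobase in CRE basal and 92.4 in GFP basal, and Smox 7.18 in CRE basal and 7.43 in GFP basal.

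**Figure D4:**
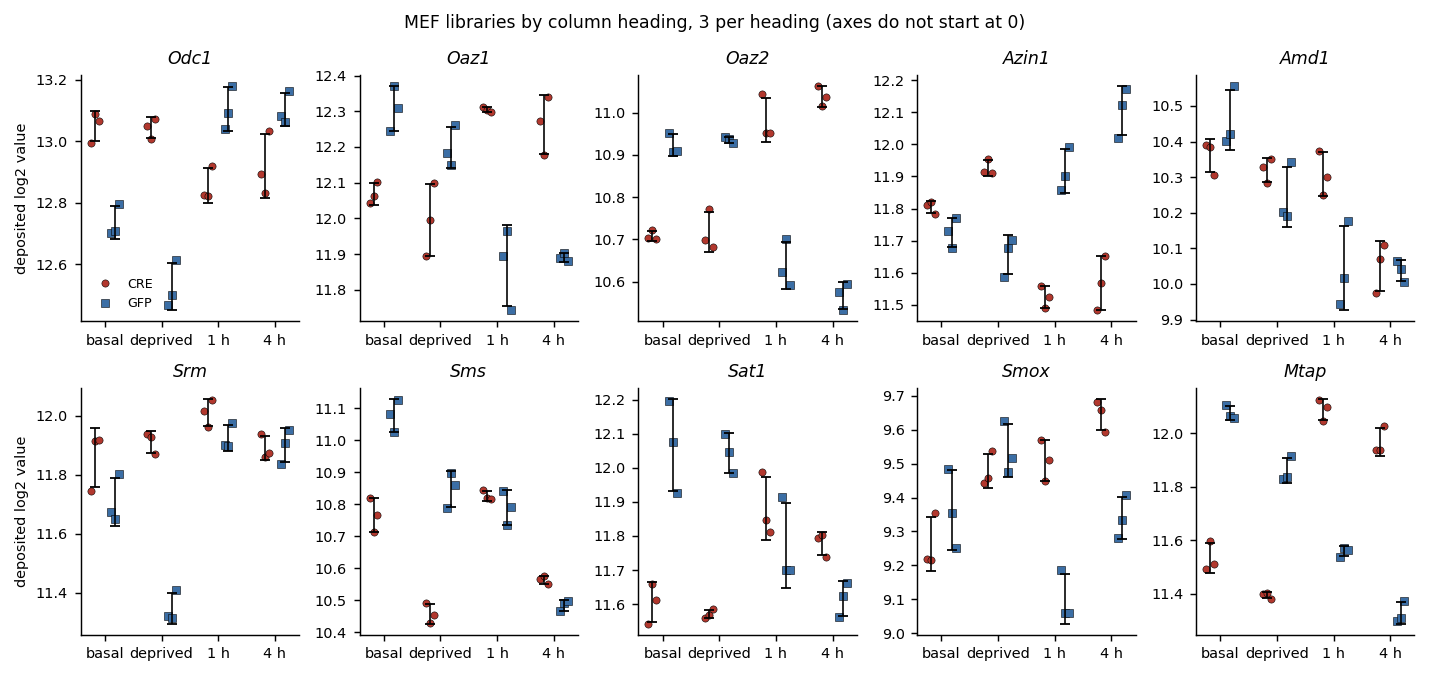
Deposited log2 values of the 10 members in 24 MEF libraries by column heading. Red circles are columns headed CRE and blue squares columns headed GFP, bars are mean and SD of 3 libraries, and the vertical axes do not start at 0. Odc1 lay between 12.47 and 13.18 and Mtap between 11.30 and 12.12, each with CRE and GFP in opposite order at basal and at 1 h.

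Odc1 had log2 values of 13.00, 13.09 and 13.07 in CRE basal, against 12.70, 12.71 and 12.80 in GFP basal. It had 13.05, 13.01 and 13.07 in CRE deprived, against 12.47, 12.50 and 12.62 in GFP deprived. The CRE columns were above the GFP columns under both headings, by 0.32 ± 0.05 (adjusted p = 1.01e-06) and 0.52 ± 0.05 (adjusted p = 4.74e-11). At 1 h Odc1 had 12.83, 12.82 and 12.92 in CRE, against 13.04, 13.09 and 13.18 in GFP, and at 4 h it had 12.89, 12.83 and 13.04 in CRE, against 13.08, 13.06 and 13.17 in GFP. Here the order was turned, with differences of -0.25 ± 0.05 (adjusted p = 4.36e-05) and -0.18 ± 0.05 (adjusted p = 0.00129). The neighbours among the 5 highest groups, from GFP 1 h at 13.10 through GFP 4 h, CRE basal and CRE deprived to CRE 4 h at 12.92, overlapped in their libraries, and GFP deprived was lowest at 12.53.

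Azin1 differed in the same direction as Odc1 wherever it passed the test, and the antizymes in the opposite direction under all 4 headings. Azin1 averaged 11.81 ± 0.02 in CRE basal and 11.73 ± 0.05 in GFP basal, 11.93 ± 0.02 in CRE deprived and 11.66 ± 0.06 in GFP deprived, 11.52 ± 0.03 in CRE 1 h and 11.92 ± 0.07 in GFP 1 h, and 11.57 ± 0.08 in CRE 4 h and 12.11 ± 0.08 in GFP 4 h (SD, n = 3 each). The difference passed at deprived (0.27 ± 0.04), 1 h (-0.39 ± 0.04) and 4 h (-0.54 ± 0.04) and not at basal (0.08 ± 0.04). Oaz1 averaged 12.07 in CRE basal and 12.31 in GFP basal, and 12.30 in CRE 1 h and 11.87 in GFP 1 h. Its differences of -0.24, -0.20, 0.44 and 0.37 at basal, deprived, 1 h and 4 h all passed. Oaz2 averaged 10.71 in CRE basal and 10.92 in GFP basal, and 11.04 in CRE 4 h and 10.57 in GFP 4 h, and its differences of -0.21, -0.22, 0.34 and 0.47 all passed as well.

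Mtap showed the widest span of the members. It had 11.49, 11.60 and 11.51 in CRE basal, against 12.10, 12.07 and 12.05 in GFP basal, and 11.40, 11.40 and 11.38 in CRE deprived, against 11.83, 11.84 and 11.91 in GFP deprived. It had 12.12, 12.05 and 12.10 in CRE 1 h, against 11.54, 11.57 and 11.56 in GFP 1 h, and 11.94, 11.94 and 12.03 in CRE 4 h, against 11.30, 11.31 and 11.37 in GFP 4 h. The viruses did not overlap under any heading, and the differences were -0.54, -0.47, 0.53 and 0.64, each ± 0.04. The lowest group was GFP 4 h at 11.33 and the highest CRE 1 h at 12.09, which overlapped with GFP basal at 12.08. Between columns headed GFP, Mtap was lower by 0.21 at deprived than at basal. It was lower by 0.30 at 1 h than at deprived and by 0.23 at 4 h than at 1 h. With those headed CRE the changes were -0.14, 0.69 and -0.12, all past the test. The first was lost without CRE basal library 2 (adjusted p = 0.0568), and the last without CRE 1 h library 1 or CRE 4 h library 1 or 2 (-0.11 to -0.10, adjusted p from 0.0601 to 0.0756) and when only the groups compared were fitted (adjusted p = 0.0827).

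Sat1 averaged 11.61 in CRE basal and 12.07 in GFP basal, 11.57 in CRE deprived and 12.04 in GFP deprived, 11.88 in CRE 1 h and 11.77 in GFP 1 h, and 11.78 in CRE 4 h and 11.62 in GFP 4 h. The differences were -0.46 ± 0.06 at basal and -0.47 ± 0.06 at deprived. They were 0.11 ± 0.06 at 1 h, which passed only without GFP 1 h library 1 (0.18; adjusted p = 0.00804) or with each library shifted to 1 median (0.18; adjusted p = 0.012), and 0.16 ± 0.06 at 4 h, which was lost without CRE 4 h library 1 or 2 or GFP 4 h library 1 (0.13 to 0.15, adjusted p from 0.0575 to 0.0888). Smox averaged 9.26 in CRE basal and 9.36 in GFP basal, 9.48 in CRE deprived and 9.54 in GFP deprived, 9.51 in CRE 1 h and 9.10 in GFP 1 h, and 9.64 in CRE 4 h and 9.34 in GFP 4 h. Smox passed at 1 h and 4 h (0.41 ± 0.06 and 0.30 ± 0.06), and at basal and deprived it passed with each library shifted to 1 median (-0.17 and -0.14) and at basal also without GFP basal library 3 (-0.16; adjusted p = 0.0391). The 2 catabolic genes thus reached no more than 1.46-fold between any groups in MEFs, beside 12-fold for Smox between fasted KO and fasted WT livers.

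Among the synthesis genes, Srm averaged 11.86 in CRE basal and 11.71 in GFP basal, and 11.91 in CRE deprived and 11.35 in GFP deprived, the lowest group. The differences were 0.15 ± 0.05 and 0.56 ± 0.05, and at 1 h and 4 h they did not pass (0.09 ± 0.05 and -0.01 ± 0.05). With each library shifted to 1 median the basal difference was lost (0.08; adjusted p = 0.126) and the 1 h difference passed (0.15; adjusted p = 0.0052). The change of Srm from basal to deprived differed between viruses by 0.41 ± 0.07 (CRE minus GFP; adjusted p = 0.000166), and those of Odc1 and Azin1 by 0.20 ± 0.07 (adjusted p = 0.0791) and 0.19 ± 0.06 (adjusted p = 0.0714); both passed without CRE 4 h library 3, and Odc1 also without GFP deprived library 3 (0.24; adjusted p = 0.0302). In CRE, the differences of Srm were 0.10 ± 0.05 for 1 h minus deprived (adjusted p = 0.0631) and -0.12 ± 0.05 for 4 h minus 1 h (adjusted p = 0.0512), and neither passed. The step to 1 h passed with the median shift (0.17; adjusted p = 0.00235), in a fit of the groups compared (adjusted p = 0.0162) and on leaving out any 1 of 4 libraries (adjusted p from 0.0421 to 0.0492), namely GFP basal 3, CRE basal 1, CRE 1 h 2 and CRE 4 h 3. The step to 4 h passed with the median shift (adjusted p = 0.0248) and on leaving out any 1 of 6 libraries (adjusted p from 0.0326 to 0.0499), namely GFP basal 3, GFP deprived 3, GFP 1 h 3, CRE basal 1, CRE 1 h 2 and CRE 4 h 1. Sms averaged 10.77 in CRE basal and 11.08 in GFP basal and 10.46 in CRE deprived and 10.85 in GFP deprived (-0.31 ± 0.04 and -0.39 ± 0.04). Its differences of 0.04 at 1 h and 0.08 at 4 h passed only after that shift (0.10 and 0.12; adjusted p = 0.0274 and 0.0106). Amd1 averaged 10.36 in CRE basal and 10.46 in GFP basal, and 10.31 in CRE 1 h and 10.05 in GFP 1 h, and passed at 1 h (0.26 ± 0.05), and at basal after that shift (-0.17; adjusted p = 0.00874).

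**Figure D5:**
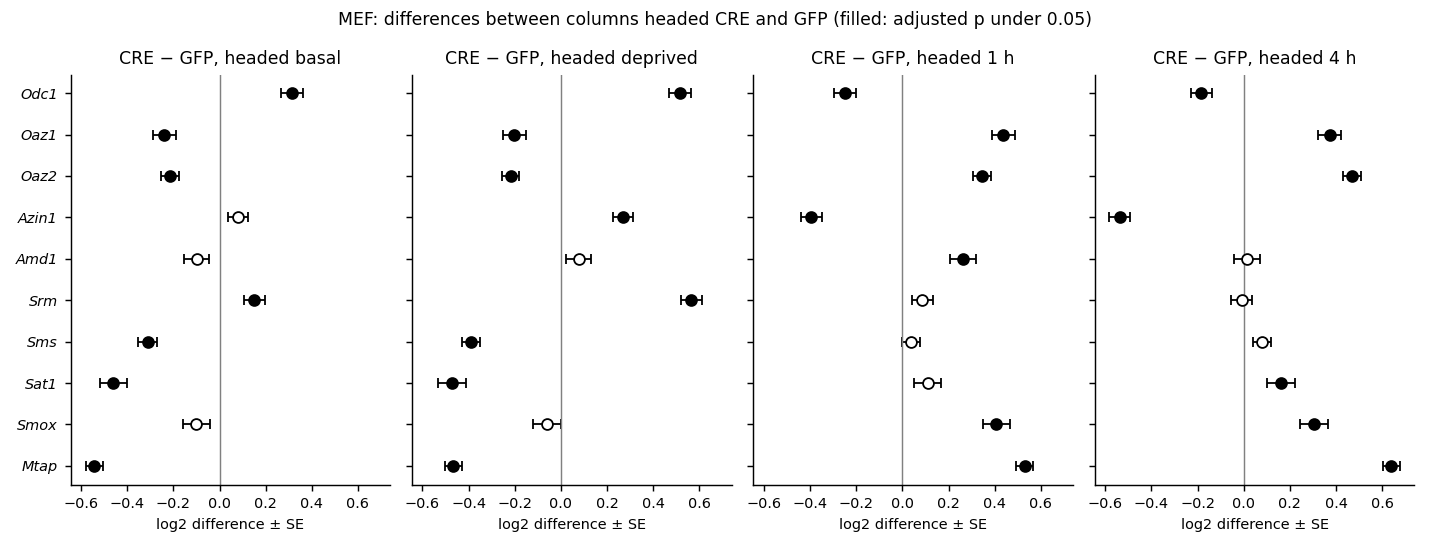
Differences between columns headed CRE and GFP for the 10 members at each heading. Horizontal axes are log2 differences with SE from limma, filled points passed an adjusted p of 0.05. Mtap lay at -0.54 and -0.47 in the panels headed basal and deprived and at 0.53 and 0.64 in those headed 1 h and 4 h.

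In counts, 2 members were higher and 5 lower in CRE basal than in GFP basal, where 58.3% of 13914 genes were called (29.7% higher and 28.6% lower), and 3 were higher and 5 lower at deprived, where 62.6% were called (32% and 30.6%). At 1 h 5 were higher and 2 lower, where 55% were called (26.9% and 28.1%), and at 4 h 5 were higher and 2 lower, where 59.8% were called (30.8% and 29%). The shift of each library to 1 median gave a split over all genes of 3204 higher and 5111 lower at basal, beside 4127 and 3986, of 3582 and 5449 at deprived, beside 4457 and 4260, and of 4903 and 3067 at 1 h, beside 3745 and 3913. At 4 h it gave 4924 and 3575, beside 4283 and 4036. For 1 h against deprived it gave 5302 and 3466 in CRE, beside 4180 and 4189, and 3373 and 5229 in GFP, beside 4271 and 4004. Within columns headed CRE, 2 members were higher and 2 lower at deprived than at basal (28.5% of genes called, 15% higher and 13.5% lower), 5 higher and 2 lower at 1 h than at deprived (60.1%, 30% and 30.1%), and 3 were called at 4 h against 1 h, all lower (25.4%, 13.4% and 12%). Within columns headed GFP, 1 member was higher and 5 were lower at deprived than at basal (23.6%, 10% and 13.6%), 3 higher and 6 lower at 1 h than at deprived (59.5%, 30.7% and 28.8%), and 2 higher and 3 lower at 4 h than at 1 h (36.7%, 17.9% and 18.8%). Of the changes from basal to deprived, 1 member of 10 was called between viruses, where 4.78% of genes were called (3.23% higher and 1.55% lower). All members and groups enter several of these comparisons, which therefore share libraries. Median differences of the members were -0.16, -0.13, 0.19 and 0.12 for CRE minus GFP at basal, deprived, 1 h and 4 h, beside 0.00, 0.00, 0.00 and 0.01 over all genes.

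A set of 4 headings chosen after the values were seen (CRE basal, CRE deprived, GFP 1 h and GFP 4 h) held the 4 highest means for Odc1 and Azin1 and the 4 lowest means for Oaz1, Oaz2, Sat1 and Mtap. The same 4 headings were highest or lowest for 34.4% of the 13914 genes tested. The other 4 members showed other orders. Without CRE 4 h library 3 the member calls in the 2 comparisons that use it were the same in number and identity, but Srm then passed between 1 h and deprived in CRE (0.10; adjusted p = 0.0485), and Odc1 and Azin1 then passed for the difference between viruses in the change from basal to deprived (0.20 and 0.19; adjusted p = 0.0243 and 0.0314). Odc1 also passed there without GFP deprived library 3 (0.24; adjusted p = 0.0302).

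Rises and falls given next are differences between column headings, with the reservation given above. Sms was lower at deprived than at basal under both viruses, by 0.31 ± 0.04 in CRE and 0.23 ± 0.04 in GFP. It was lower at 4 h than at 1 h by 0.26 ± 0.04 in CRE and 0.30 ± 0.04 in GFP. From basal to deprived in GFP, Srm changed by -0.36 ± 0.05, Amd1 by -0.22 ± 0.05 and Odc1 by -0.21 ± 0.05, all past the test. From 1 h to 4 h, Amd1 changed by -0.26 ± 0.05 in CRE and Azin1 by 0.19 ± 0.04 in GFP, both past the test. Smox rose from basal to deprived by 0.22 ± 0.06 in CRE and 0.18 ± 0.06 in GFP, and from 1 h to 4 h by 0.24 ± 0.06 in GFP, while its change in CRE was 0.13 ± 0.06 (adjusted p = 0.0985). The GFP change from basal to deprived was lost without GFP basal library 2 or 3 or GFP deprived library 1 (0.12 to 0.17, adjusted p from 0.0788 to 0.205), with no filter (adjusted p = 0.0697) and with DESeq2 on recovered counts (adjusted p = 0.0502). Azin1 rose at deprived in CRE (0.12 ± 0.04; adjusted p = 0.0389), a call lost without any of the 6 libraries compared (0.11 to 0.13, adjusted p from 0.0621 to 0.133), with the median shift (adjusted p = 0.0635), with no filter (adjusted p = 0.0653) and with no trend (adjusted p = 0.075). Sat1 fell from 1 h to 4 h in GFP by 0.16 ± 0.06 (adjusted p = 0.0411), a call lost without GFP 1 h library 1 (-0.08; adjusted p = 0.281), without GFP 4 h library 1 or 2 (-0.13 and -0.16; adjusted p = 0.147 and 0.0792), with the median shift (adjusted p = 0.0513), with no filter (adjusted p = 0.0682) and with no trend (adjusted p = 0.0723). From deprived to 1 h most members moved in opposite directions under the viruses. Odc1 changed by -0.19 ± 0.05 in CRE and 0.58 ± 0.05 in GFP, Azin1 by -0.40 ± 0.04 in CRE and 0.26 ± 0.04 in GFP, Oaz1 by 0.31 ± 0.05 in CRE and -0.33 ± 0.05 in GFP, and Oaz2 by 0.26 ± 0.04 in CRE and -0.30 ± 0.04 in GFP. Sat1 changed by 0.31 ± 0.06 in CRE and -0.27 ± 0.06 in GFP, both past the test. Sms changed by 0.37 ± 0.04 in CRE, past the test, and by -0.06 ± 0.04 in GFP (adjusted p = 0.218). The GFP change of Sms passed with the median shift (-0.13; adjusted p = 0.00447). Also past the test in GFP were Srm (0.58 ± 0.05), Amd1 (-0.20 ± 0.05) and Smox (-0.44 ± 0.06). The difference between viruses in this step was not tested.

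Of the other lists, 7 tested genes of the methionine cycle had 3 higher and 2 lower in CRE than in GFP at basal and at deprived, 1 higher and 4 lower at 1 h, and 2 higher and 3 lower at 4 h. Over the 4 stages 58.3%, 62.6%, 55% and 59.8% of all genes were called. Mat2a differed by 1.25 at basal, 1.42 at deprived, -2.08 at 1 h and -2.35 at 4 h. Of 7 tested MYC network genes 5 were called at basal and 4 at deprived, all higher in CRE, while 1 was higher and 4 were lower at 1 h, and 1 was higher and 3 were lower at 4 h. Myc differed by 1.58 at basal, 1.98 at deprived, -2.41 at 1 h and -2.75 at 4 h. The arginine carrier Slc7a1 differed by 1.31, 1.51, -2.06 and -1.97 at the same headings. Of 6 salvage genes 3 were higher and 1 lower at basal, 4 were called at deprived, all higher, 2 were higher and 2 lower at 1 h, and 1 was higher and 2 lower at 4 h, with Got1 at 0.85, 0.88, -0.34 and -0.25. Proliferation markers summed to 1734 to 1843 CPM in CRE basal and 2358 to 2558 CPM in GFP basal, and to 1861 to 2043 CPM in CRE 1 h and 1745 to 1929 CPM in GFP 1 h, and their part in the members' differences was not tested. Macrophage markers were at 6.34 to 11.6 CPM and hepatocyte markers at 0.142 to 0.574 CPM in all MEF libraries.

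The MEF genes most like these members over 24 libraries, which share virus, heading and depth, were Cnbp (0.963), Dis3 (0.960) and Cnot9 (0.956) for Odc1. For Sat1 they were Fam3c (0.941), Txndc15 (0.936) and Xrcc1 (0.932). For Amd1 they were the small nucleolar RNAs Snora73b (0.845) and Snord52 (0.838) and the small nucleolar RNA host gene Snhg4 (0.834). These values of r were lower than for the other 2 members.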

How the data were processed

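Poly(A) RNA was measured in 12 liver and 24 MEF libraries (dUTP libraries, DNBSEQ). The liver table holds raw counts per feature as deposited by the authors, made with HISAT2 and Subread on mm10, per the submitters' processing notes. The MEF table holds log2 values that the authors made by a variance-stabilizing transformation of all libraries together, after STAR 2.7.10b and featureCounts on mm10, per the submitters' processing notes and the file headers. Strand setting, filters and other versions are not given in the sources used here.

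Liver counts were fitted with edgeR 4.0.16 (quasi-likelihood test, TMM, filterByExpr, all 4 groups in 1 fit), which left 23875 features, NONCODE features included. The 48526 Ensembl features were named through GENCODE M21, with a symbol for 48058. Liver libraries carry no replicate number in their headings, so they are called a, b and c as names only. MEF values were fitted with limma 3.58.1 (trended prior, all 8 groups in 1 fit) on 13914 genes, kept where their mean over all libraries exceeded the table minimum of 4.17 by 1 or more. Whole MEF counts were recovered from the log2 values (100% whole within 0.01) and used for depth and levels per length. Adjusted p-values are Benjamini-Hochberg over all genes of a fit, with a threshold of 0.05. Alternatives were DESeq2 1.42.0, RLE factors, library sizes alone, no filter, Ensembl features alone, fits of the groups compared alone, a shift of each MEF library to 1 median, no trend, a replicate block, edgeR and DESeq2 on recovered counts, and leaving out each library. The edgeR and limma fits, and DESeq2 on liver counts, were each tried on simulated data for 1 comparison. The other alternatives and the tests of a difference between changes were not. All 10 members were tested in every comparison, and some of their values that did not pass are not printed. For each list around them, the counts and up to 4 genes with the smallest adjusted p are given for the comparisons described. The members and lists were chosen with earlier results of these data known. With 9110836 to 21245006 counts per library, low genes such as Sms in liver rest on few counts. 1 gene of the polyamine carrier list is not reported here, and the counts of that list leave it out.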

Additional observations from a re-analysis of the deposited data

Results flagged for a closer look

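The response to fasting differed between genotypes by a test of the difference itself for 4 members in liver, where 12.1% of all genes were called. The call for Srm was lost without fed KO library c (adjusted p = 0.0534) or fed WT library b (adjusted p = 0.0552). The call for Smox was lost without any 1 of several libraries (adjusted p from 0.061 to 0.128). The difference, fasting change in KO minus fasting change in WT, was 1.56 for Sms, 1.11 for Amd1, 0.86 for Srm and 0.85 for Smox on the log2 scale by edgeR. For Sms, Amd1 and Srm the WT libraries were lower fasted than fed and the KO libraries overlapped between the states, whereas for Smox the fasted KO libraries were above the fed KO libraries and the WT libraries overlapped. In MEFs the change from basal to deprived differed between columns headed CRE and columns headed GFP for Srm, by 0.41 (CRE minus GFP) by limma. Over all genes 4.78% were called there, and the reservation about the column headings given with the MEF results applies.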

How the results depend on the processing

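Over alternatives other than leaving out a library, 1013 of 1050 member values kept their call, 16 lost it, 20 gained it and 1 called value changed sign. Of those that kept it, 13 values past the threshold in neither fit changed sign. The called value was Oaz2 in fasted KO against fasted WT livers, at 0.10 with library sizes alone, which moves the median of all genes there to 0.52. Leaving out a library, 43 of 3240 member values lost the call and 18 gained it. The number of members called for fasting in KO livers was 0 with library sizes alone and 0 when the groups compared were fitted alone, beside 1, and 0 to 1 over libraries left out. For the difference between genotypes in the fasting response it was 2 to 4 over libraries left out. In MEFs the replicate block gave 3 members (Srm, Odc1 and Azin1), beside 1, for the difference between CRE and GFP in the change from basal to deprived, and 1 to 3 over libraries left out. With the block, Srm also passed in CRE from deprived to 1 h (adjusted p = 0.0428) and from 1 h to 4 h (adjusted p = 0.0319). For deprived against basal in CRE the number was 2 to 4. Deviations of MEF libraries with the same replicate number correlated from -0.13 to 0.23, and in 0 comparisons were all pairs over 0.1. For replicate 3 the correlations between successive GFP headings were 0.15, 0.23 and 0.18. The values do not settle whether the MEF libraries were paired. Other counts of members stayed within 1.5 times. No paired analysis was possible in liver because the liver columns carry no replicate numbers. Over all genes, fasting in KO livers called 332 genes by edgeR, 932 by DESeq2, 1558 with no filter, 518 with Ensembl features alone and 27 in a fit of the groups compared, with 4 to 1242 over libraries left out. In MEFs the difference between CRE and GFP in the change from basal to deprived called 665 genes, 419 with no filter and 360 to 1080 over libraries left out, and 4 h against 1 h in CRE called 3539, or 2224 in a fit of the groups compared. The causes were not tested. The depth limits Sms and Smox in WT livers, with 12 to 64 counts a library.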
